A study of Homo sapiens with 14 samples.

Results

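The comparison described here set 3 arrays of WM266-4 cells labelled FOXD1 siRNA 2 against 3 arrays of the same cells with a control siRNA, 6 of the 14 arrays in the series, and followed every named gene detected on at least 2 of the 6 arrays. This rule kept 13673 genes of 20043 named on the array. WM266-4 is a human melanoma cell line with a BRAF mutation, per the labels, and total RNA was measured on Illumina bead arrays, which report a fluorescence signal for each short probe. The control group received a Stealth RNAi negative control siRNA of high GC content. The FOXD1 siRNA 2 group received a 25-base duplex. A further 3 arrays of the same line with FOXD1 siRNA 1 entered the fit for the shared estimate of the spread and for the direct comparison of the siRNAs. All 9 arrays share the line, its BRAF mutation and the culture medium, and no drug treatment is named in their labels. The time after transfection, the siRNA dose and whether replicates were separate cultures are not given in the labels, so the p-values reflect only how far these arrays scattered, and that scatter may be technical. One line is measured here, and a bulk signal cannot tell fewer cells of a state from less RNA per cell.

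FOXD1 is a forkhead transcription factor, a member of a family that binds DNA through a winged-helix domain. It is known from the stroma of the developing kidney and from the retina, and the series title connects it with dedifferentiation and vemurafenib resistance in melanoma and with CTGF (gene symbol CCN2). A small interfering RNA lowers a transcript when a strand of the duplex is loaded into an Argonaute protein and pairs with its target over its whole length. The loaded strand can also act like a microRNA on other transcripts that match its seed, the bases near its 5′ end. For that reason a transcript that moves with an siRNA need not depend on the gene the siRNA was designed against.

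The sequences of both siRNAs stand in the labels and are shown because they are what was designed to differ between the siRNA groups. Capitals mark bases 2 to 8 of each strand, and the labels do not say which strand of the duplex is written, so the reverse complement of siRNA 2 is given too.
FOXD1 siRNA 2, as labelled: gCCGAGGAaacagacaucgacgugg
FOXD1 siRNA 2, reverse complement: cCACGUCGaugucuguuuccucggc
FOXD1 siRNA 1, as labelled: uACUGCUAggauuuccaauuguuaa
The siRNA 2 sequence holds 60% G and C and the siRNA 1 sequence 32%. Neither strand of either duplex shares its bases 2 to 8 with any of 2545 human mature miRNAs of RefSeq. The gene FOXD1 lies on chromosome 5. The site of each siRNA in the transcript was not analysed here.

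FOXD1 itself was examined first (probe ILMN_1704418, the deposited log2 signal). It read 6.97, 7.00 and 7.21 on the control arrays and 7.10, 7.14 and 7.06 on the arrays labelled FOXD1 siRNA 2. The siRNA 2 values lay within the range of the control values. The means were 7.06 ± 0.13 and 7.10 ± 0.04 (SD, n = 3 each), a difference of 0.04 with a 95% confidence interval of -0.153 to 0.233 (limma adjusted p = 0.837). No fall of FOXD1 was therefore detected on these arrays. The single FOXD1 probe is dim, at 7.06 with control siRNA beside a median of 6.64 over all probes. The directions given for siRNA 2, here the name of the arrays so labelled, rest on the labels and not on a measured FOXD1 loss. With siRNA 1 the same probe read 6.49, 6.50 and 6.63, below every control array, and was detected on 1 of these 3 arrays. The difference between siRNA 2 and siRNA 1 was 0.56 as measured (SE 0.0894, adjusted p = 0.00159), with the siRNA 1 side near background. The source label of the siRNA 2 arrays names FOXD2, while their titles and descriptions name FOXD1. FOXD2, a related forkhead factor, read 10.06, 9.89 and 9.63 with control siRNA and 9.91, 9.76 and 9.80 with siRNA 2. These groups overlapped and differed by -0.04 (adjusted p = 0.879, 95% confidence interval -0.269 to 0.195).

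The arrays were similar in depth of signal, with somewhat fewer probes detected with siRNA 2. The shares were 47.98%, 50.43% and 48.71% on the control arrays and 47.87%, 46.35% and 47.01% on the siRNA 2 arrays, without overlap. Between 46.3% and 50.4% of probes were detected on each of the 9 WM266-4 arrays, and their median raw intensities ran from 94.3 to 104. The melanocytic markers SOX10, MITF, PMEL, TYR, S100A1 and GPM6B were detected on all 6 arrays, and MLANA on 1 of them, too few to be tested. S100B was detected on 3 control and 2 siRNA 2 arrays, and PAX3 on 1 and 2. No melanocytic marker was called without a block. With the replicate number as a block, PMEL, S100A1 and GPM6B were called lower (-0.64, -0.33 and -0.48, adjusted p = 0.000674, 0.0336 and 0.0112). The keratinocyte markers KRT5, KRT1 and DSG3, the leukocyte markers PTPRC and CD3E, the epithelial markers CDH1 and KRT7, the endothelial marker CDH5 and the fibroblast marker PDGFRA were detected on none of the 6 arrays. KRT10, VWF, CD68 and LYZ were detected on all 6. Among the others, DCN and LUM were detected on 3 control and 2 siRNA 2 arrays, COL3A1 on 1 and 2, and EPCAM on 1 and 3. KRT19 was detected on 2 and 0, COL1A1 on 1 and 1, KRT14 on 1 and 0, and TEK and PECAM1 on 0 and 1. For DCN the probe tested was a different one, with means of 6.68 with control siRNA and 6.70 with siRNA 2. No tested marker of another cell type was called, with or without the replicate number as a block. Array 2 of the siRNA 2 group stood apart for a small set of genes. In 65 of 13673 genes both other siRNA 2 arrays lay more than 0.5 (log2) from the control mean on the same side. Array 2 lay less than 0.2 from that mean on this side, or anywhere on the other side. Arrays 1 and 3 were set apart in this way by 11 and 28 genes. In the siRNA 1 group the counts for arrays 1, 2 and 3 were 8, 27 and 19. Both limits were chosen after seeing the data.

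Of the 13673 genes, 1787 differed between siRNA 2 and control siRNA at an adjusted p under 0.05 (13.1%), 1021 higher (7.47%) and 766 lower (5.6%). With the replicate number as a block, which pairs the arrays, 2746 genes were called (20.1%), and these included all 1787. Without array 2 of the siRNA 2 group 1496 genes were called. Most differences were small: the median size among called genes was 0.47 on the log2 scale, and 69.3% of them were under 1.5-fold. At least 2-fold differences were called for 103 genes (0.753%), 68 higher and 35 lower. The deposited values carry no background subtraction, so the folds of dim genes are understated. With background corrected by the normexp model 1229 genes were called and 301 of them were at least 2-fold. The median difference over all genes was 0.

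**Figure D1:**
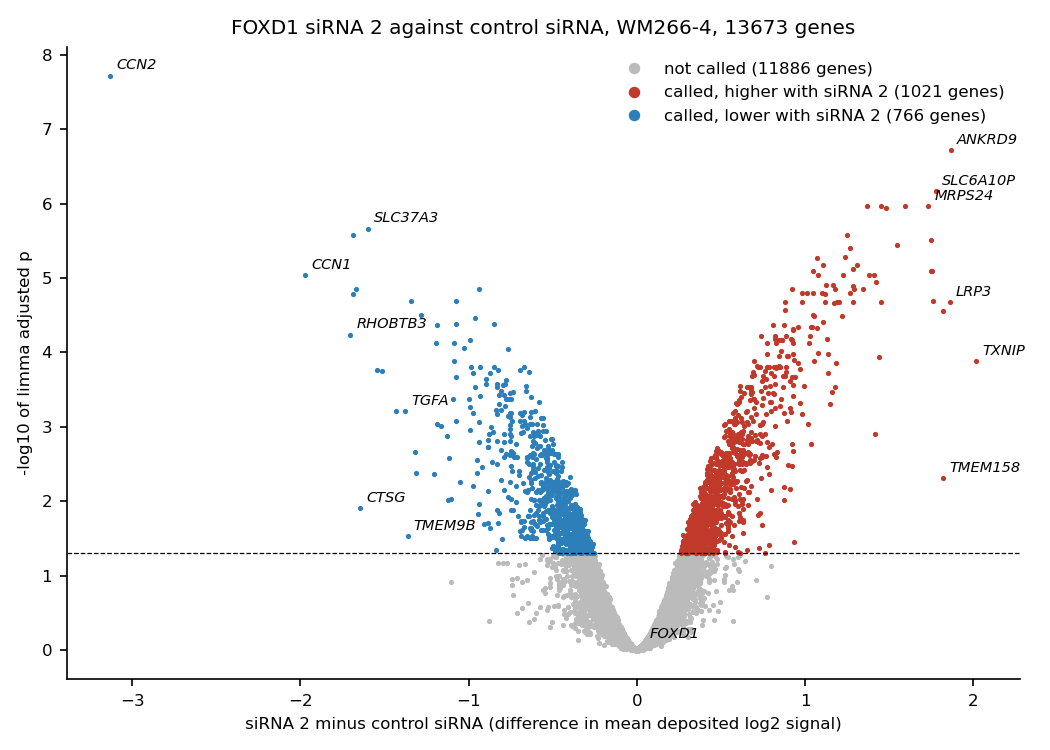
Difference in mean log2 signal between the FOXD1 siRNA 2 and control siRNA arrays (x axis) against the negative log10 of the limma adjusted p (y axis) for 13673 genes, 1 point per gene. Red points are the 1021 genes called higher and blue points the 766 called lower above the dashed threshold of 0.05. CCN2 stands alone at a difference of -3.13, TXNIP lies farthest right at 2.02, and FOXD1 lies at the foot of the plot near 0.

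CCN2, a secreted matricellular protein that is a classical target of the YAP and TAZ coactivators, showed the largest difference of any gene called. It read 12.90, 13.20 and 12.75 on the control arrays and 9.74, 9.75 and 9.96 on the siRNA 2 arrays (probe ILMN_1699829). Every siRNA 2 array lay far below every control array. The difference was -3.13 in log2 units with an SE of 0.118 (adjusted p = 1.92e-08), an 8.78-fold fall, and a further CCN2 probe, ILMN_2115125, fell by 3.03. With siRNA 1 CCN2 read 10.10, 9.91 and 10.11. The difference of -0.22 between the siRNAs did not pass the test (95% confidence interval -0.478 to 0.0311, adjusted p = 0.292). CCN1, its closest relative among the YAP and TAZ targets, read 9.12, 9.71 and 9.44 with control siRNA and 7.56, 7.29 and 7.50 with siRNA 2. It fell 3.93-fold, with an SE of 0.160 in log2 units (adjusted p = 9.19e-06), again with no overlap.

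**Figure D2:**
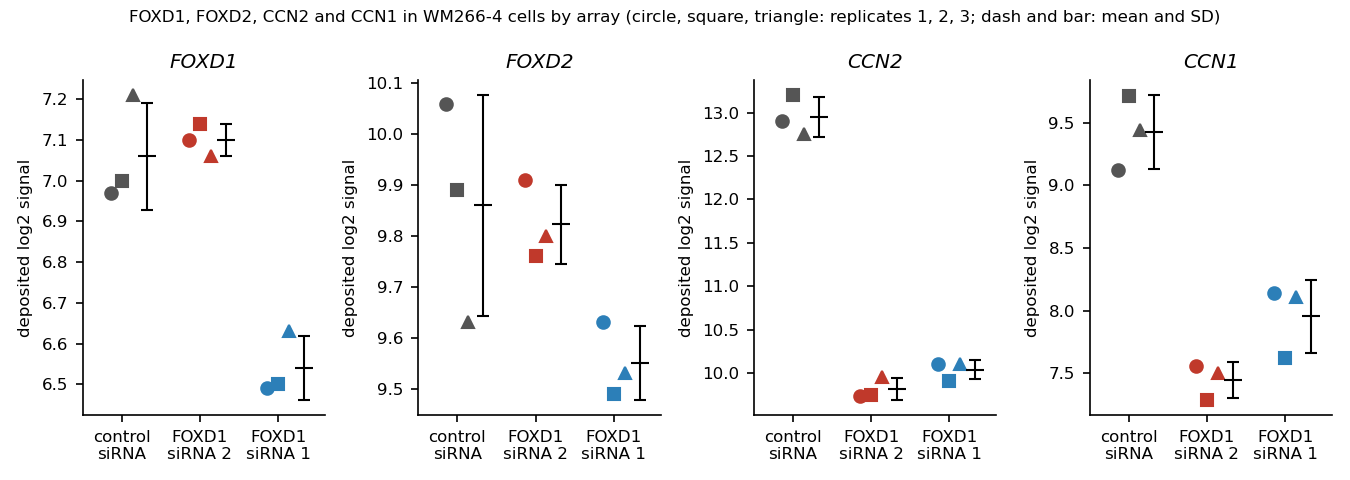
Deposited log2 signal (y axes, each with its own range) of FOXD1, FOXD2, CCN2 and CCN1 on the 9 WM266-4 arrays by siRNA group (x axes); circles, squares and triangles are replicates 1, 2 and 3, and the dash with its bar is the mean with the SD. FOXD1 with siRNA 2 (7.06 to 7.14) lies among the control values (6.97 to 7.21) and above siRNA 1 (6.49 to 6.63), whereas CCN2 is near 10 with either siRNA and near 13 with control siRNA.

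Other YAP and TAZ targets moved both ways. Of 19 members tested, 3 fell and 2 rose, and the median difference was -0.14. For this and every other list, the shares over all genes were 5.6% lower and 7.47% higher, or 13.1% either way. The third that fell was AXL, a receptor tyrosine kinase, from 11.32, 11.11 and 11.09 to 10.69, 10.13 and 10.65 (-0.68, adjusted p = 0.0245). AXL lost its call when any of 3 arrays was left out, with an adjusted p of up to 0.097 (without control array 1). ASAP1, an Arf GTPase-activating protein, rose by 0.52 (adjusted p = 0.00549), and FJX1, a secreted protein related to Drosophila four-jointed, rose by 0.32 (adjusted p = 0.0174, and 0.066 without array 3 of siRNA 2). With the block the list had 6 members lower and 4 higher, while 20.1% of all genes were called. Of 16 Hippo pathway factors (12.5% called, 13.1% of all genes), 2 fell and none rose. They were the coactivator YAP1, which fell by 0.41 (adjusted p = 0.00568), and MOB1A, a scaffold of the LATS kinases, which fell by 0.45 (adjusted p = 0.0115). YAP1 was lower still with siRNA 1, and the difference between the siRNAs was 0.57 (adjusted p = 0.000817).

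The promoters of CCN2 and of TXNIP, the gene with the largest rise, are shown because these genes lie at the ends of the distribution. They are the 200 bases before the annotated start in RefSeq (GRCh38.p14), read on the strand of the gene, chr6:131951373-131951572 (minus) for CCN2 and chr1:145996580-145996779 (minus) for TXNIP. Capitals mark GGAATG, the motif of TEAD factors, in CCN2 and GTAAACA, a forkhead motif, in TXNIP.
CCN2: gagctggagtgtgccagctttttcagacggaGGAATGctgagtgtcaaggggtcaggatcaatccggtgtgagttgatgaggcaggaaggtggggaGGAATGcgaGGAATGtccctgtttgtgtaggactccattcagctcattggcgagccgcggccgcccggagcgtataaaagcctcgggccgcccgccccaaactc
TXNIP: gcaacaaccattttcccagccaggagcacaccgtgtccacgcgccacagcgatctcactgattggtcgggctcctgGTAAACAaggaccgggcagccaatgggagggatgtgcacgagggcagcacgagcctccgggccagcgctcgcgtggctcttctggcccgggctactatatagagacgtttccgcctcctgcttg
The CCN2 promoter held 3 matches to GGAATG and the TXNIP promoter 1 match to GTAAACA. Counted on both strands, GGAATG was found in 7.03% of the 10847 tested genes with a promoter in the table, in 6.18% of those that rose and in 8.12% of those that fell. Among the 30 genes with a promoter that fell at least 2-fold it was found in 5, CCN2 among them. It was also found in 5 of the 52 that rose at least 2-fold. GTAAACA was found in 1.39% of tested promoters, 1.40% of those that rose and 1.95% of those that fell. Of the genes at least 2-fold changed, it was found in 1 that rose, TXNIP, and in 0 that fell. A match is a run of letters and not a shown binding site.

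The genes that rose most were spread over several functions. TXNIP, an arrestin-related inhibitor of thioredoxin that rises with glucose, read 7.51, 7.43 and 8.19 with control siRNA and 9.55, 10.18 and 9.46 with siRNA 2. It rose 4.06-fold, with an SE of 0.233 in log2 units (adjusted p = 0.00013), and every siRNA 2 array lay above every control array. SRM, spermidine synthase, rose from 8.65, 8.42 and 8.83 to 10.76, 10.02 and 10.58 (1.82, SE 0.173, adjusted p = 2.8e-05). CD81, a tetraspanin of the cell surface, rose from 11.13, 10.61 and 11.48 to 12.83, 12.84 and 12.83 (1.76, SE 0.160, adjusted p = 2.01e-05). The CD81 values were almost equal on the siRNA 2 arrays and on the siRNA 1 arrays (12.85, 12.86 and 12.89), and spread widely on the control arrays. PHLDA2, a pleckstrin-homology protein encoded by an imprinted gene, rose from 8.47, 8.44 and 8.39 to 9.99, 10.55 and 10.02 (1.75, adjusted p = 8.17e-06).

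LRP3, of the LDL receptor family, rose by 1.86 (adjusted p = 2.1e-05), while of the other 11 tested members of that family only LRPAP1, the receptor-associated protein, was called (-0.67, adjusted p = 0.000633). MRPS24, a subunit of the mitochondrial ribosome, rose by 1.73 (adjusted p = 1.08e-06), and PANX2, a pannexin channel protein, by 1.75 (adjusted p = 3.08e-06). PTMS, parathymosin, rose by 1.75 (adjusted p = 8.17e-06). MFSD12, a transporter of melanosomes and lysosomes that affects pigment, rose from 9.51, 9.69 and 9.89 to 11.27, 11.30 and 11.31 (1.60, SE 0.0964, adjusted p = 1.08e-06). TMEM158, a membrane protein known as induced by RAS, rose by 1.82 and varied most, from 8.16, 8.17 and 9.53 to 10.31, 9.85 and 11.16 (SE 0.357, adjusted p = 0.00486). Some of these calls rest on uncertain probes. ANKRD9 rose by 1.87 (adjusted p = 1.93e-07), but a further ANKRD9 probe differed by 0.18. SLC6A10P, at 1.78, is a pseudogene close in sequence to the creatine transporter gene SLC6A8, itself 1.12 higher, so the probe may read either.

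VGF, a secreted neuropeptide precursor, fell from 12.25, 12.70 and 12.27 to 10.55, 10.97 and 11.16 (-1.51, SE 0.183, adjusted p = 0.000178). TPST1, a tyrosylprotein sulfotransferase of the Golgi, fell from 11.00, 11.16 and 10.75 to 9.31, 9.25 and 9.29 (-1.69, SE 0.114, adjusted p = 2.67e-06). ANKS1A, an adaptor of Eph receptors, fell from 12.59, 12.97 and 12.48 to 10.85, 11.34 and 10.79 (-1.69, SE 0.149, adjusted p = 1.64e-05). None of these groups overlapped. IFNLR1, the receptor chain for interferon lambda, fell by 1.67 (adjusted p = 1.39e-05), with a further IFNLR1 probe at -0.81. SLC37A3, a lysosomal transporter of the sugar-phosphate exchanger family, fell by 1.60 (adjusted p = 2.17e-06). PXYLP1, a phosphatase of glycosaminoglycan synthesis, fell by 1.55 (adjusted p = 0.000172).

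CTSG, the serine protease cathepsin G, read 8.73, 9.03 and 9.82 with control siRNA and 7.20, 7.04 and 8.40 with siRNA 2. Array 3 was the highest in each group, and the fall of 1.65 (SE 0.379, adjusted p = 0.0123) was not called without array 1 of siRNA 2 (adjusted p = 0.0544). NSG1, an endosomal protein of neurons, fell by 1.43 (adjusted p = 0.000603), but a further NSG1 probe differed by -0.13. Of the 12 genes that rose most and the 12 that fell most, CTSG was the only one to lose its call when a single array was left out.

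**Figure D3:**
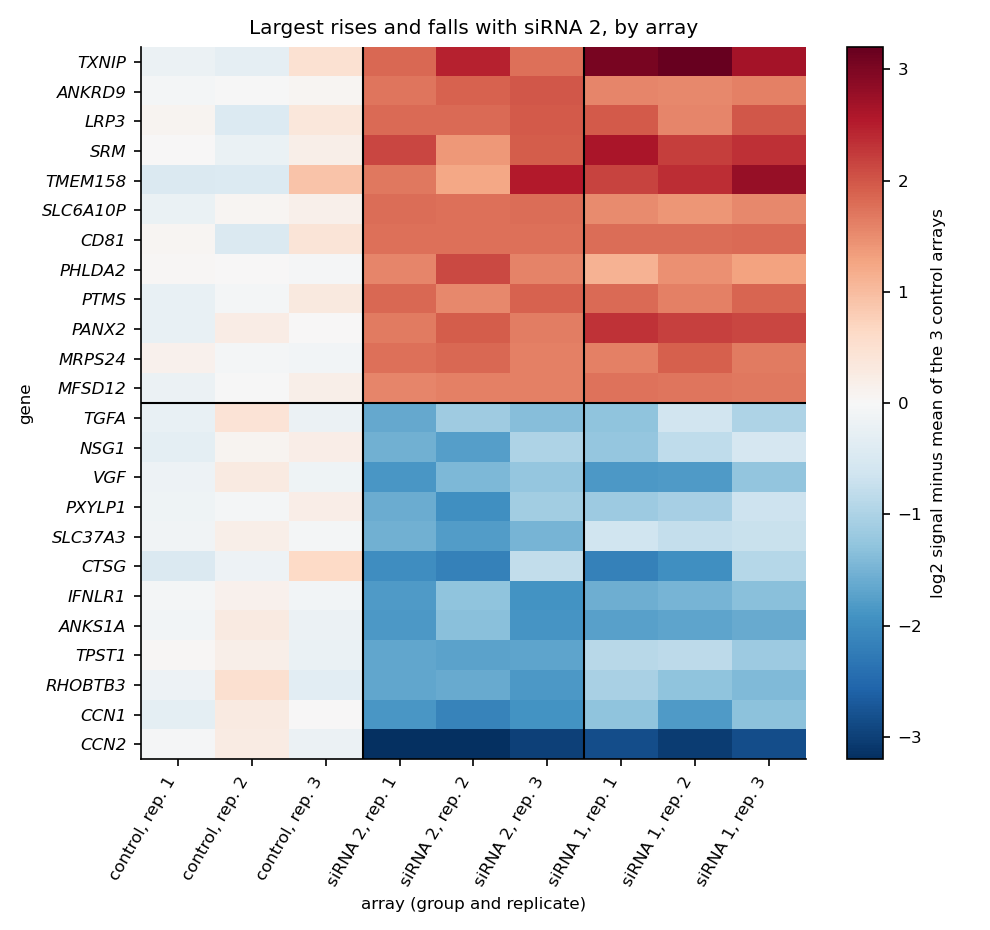
Log2 signal minus the mean of the 3 control arrays (color) for the 12 genes with the largest rise and the 12 with the largest fall with siRNA 2 (rows) on the 9 WM266-4 arrays (columns, control siRNA, siRNA 2 and siRNA 1). The siRNA 2 columns are red for every risen gene and blue for every fallen gene on all 3 arrays, and the siRNA 1 columns stand beside them.

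The EGF receptor list held receptors and ligands of that family, and also ADAM17 and ERRFI1. Of its 9 tested members 3 fell and none rose, while 5.6% of all genes fell. The fallen members were TGFA, HBEGF and ERRFI1, and the receptors tested, ERBB2 and ERBB3, were not called (adjusted p = 0.514 and 0.736). TGFA, the ligand transforming growth factor alpha, read 9.69, 10.37 and 9.74 with control siRNA and 8.29, 8.80 and 8.58 with siRNA 2 (-1.38, SE 0.197, adjusted p = 0.00061). HBEGF, the heparin-binding EGF-like ligand, read 8.88, 9.24 and 9.17 against 7.73, 7.71 and 8.0 (-1.28, SE 0.124, adjusted p = 3.15e-05). ERRFI1, which binds and inhibits the activated receptor, read 10.76, 10.54 and 10.71 against 9.55, 9.57 and 10.07 (-0.94, SE 0.141, adjusted p = 0.00085). The groups were apart for all 3 genes. A further TGFA probe differed by -1.37.

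Among genes known as output or feedback of ERK signalling, the pathway that BRAF drives, 6 of 18 tested fell and none rose, while 5.6% of all genes fell, and the median difference was -0.29 (4 fell with normexp). DUSP6, the phosphatase that inactivates ERK, fell from 11.36, 11.75 and 11.51 to 10.55, 10.83 and 10.72 (-0.84, SE 0.119, adjusted p = 0.000589). IER3, an immediate early gene, fell by 0.70 (adjusted p = 0.00017) and the ETS factor ETV5 by 0.57 (adjusted p = 0.00231). EGR1, an immediate early zinc-finger factor, fell by 0.62 (adjusted p = 0.0289) and lost its call without any of 4 arrays (adjusted p up to 0.113, without array 1 of siRNA 2). With the block 10 of the 18 were lower and 1 higher. The immediate early and AP-1 genes moved both ways, with 5 of 20 lower and 2 higher (7 lower and 4 higher with the block, 2 and 2 with normexp). FOSB fell by 1.12 (adjusted p = 0.00262) and ZFP36, an mRNA decay factor, by 0.61 (adjusted p = 0.00972). JUND, an AP-1 subunit, rose from 10.22, 10.42 and 10.58 to 11.69, 11.71 and 11.74 (1.31, SE 0.0996, adjusted p = 6.63e-06), and MYC rose by 0.55 (adjusted p = 0.00108).

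Among other receptor tyrosine kinases and their ligands 4 of 20 fell and none rose, while 5.6% of all genes fell. PDGFRB, a platelet-derived growth factor receptor, was detected on all control arrays at 6.91, 7.17 and 7.26 and on none of the siRNA 2 arrays, where it read 6.49, 6.38 and 6.47. Against the lowest detected signal of those arrays it was at least 1.46-fold lower (adjusted p = 0.000921). PDGFA, a ligand of the PDGF receptors, fell by 0.51 (adjusted p = 0.0032). EPHA2, an ephrin receptor, fell by 0.32 (adjusted p = 0.0254) and lost its call without any of 4 arrays (up to 0.0979, without control array 2). The fourth was AXL, above.

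Some of the 34 gene lists share genes. The list of integrins and cadherins, which also holds MCAM, had the largest share of members lower. This was not so with normexp, where 3 of 18 fell and the EGF receptor list (3 of 9) and other lists had larger shares. Of 18 tested members of the integrin and cadherin list, 8 fell, MCAM among them, and none rose, while 5.6% of all genes fell. A negative difference was seen in 17, and the median was -0.34. The mean log2 signal of the list was 9.53 to 9.63 on the control arrays and 9.05 to 9.26 on the siRNA 2 arrays, with no overlap. MCAM, a melanoma adhesion molecule of the immunoglobulin family, fell from 9.07, 9.37 and 9.04 to 8.22, 8.10 and 8.08 (-1.03, SE 0.113, adjusted p = 8.81e-05). CDH19, a cadherin of neural crest cells, fell from 10.26, 10.21 and 10.44 to 9.44, 9.17 and 9.61 (-0.90, SE 0.112, adjusted p = 0.000228). ITGB3, the integrin beta 3 subunit, fell from 10.15, 10.43 and 10.29 to 9.49, 9.08 and 9.64 (-0.89, SE 0.149, adjusted p = 0.00184). Each of these 3 genes had all siRNA 2 arrays below all control arrays. ITGB8 differed by -0.59 (adjusted p = 0.0212) with arrays that touched at 8.21, and lost its call without any of 4 arrays (up to 0.0864, without control array 2). With the block 12 members fell.

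In the list of contractile and filament genes 4 of 20 fell and 1 rose, while 5.6% of all genes fell and 7.47% rose. TPM1, a tropomyosin, fell from 10.27, 9.74 and 9.36 to 8.65, 8.57 and 8.58 (-1.19, SE 0.180, adjusted p = 0.000921), although of its 2 further probes one differed by -1.17 and the other by -0.15. TPM2 fell by 1.07 (adjusted p = 0.000216), and the calponins CNN2 and CNN3 by 0.78 and 0.65 (adjusted p = 0.000426 and 0.0074). The member that rose was VIM, vimentin, the brightest gene called higher, from 12.90, 13.15 and 13.06 to 13.90, 13.88 and 13.80 (0.82, SE 0.0872, adjusted p = 6.65e-05).

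Of 21 laminins and matrix glycoproteins 3 fell and none rose. LAMA4, a laminin chain of basement membranes, fell by 0.92 (adjusted p = 0.00346) and LAMB2, a laminin beta chain, by 0.50 (adjusted p = 0.00221). BGN, the proteoglycan biglycan, fell by 0.84 (adjusted p = 0.0451) and lost its call without any of 5 arrays (up to 0.144, without array 1 of siRNA 2). Of 23 collagens and collagen-processing genes 1 fell, the collagen chaperone SERPINH1 (-0.62, adjusted p = 0.00179), while 7 fell with the block. Of 25 proteases and inhibitors 6 fell and none rose (3 with normexp), while 5.6% of all genes fell. Besides CTSG they included CST1, a cystatin, which fell by 1.10 (adjusted p = 0.00917). PLAUR, the urokinase receptor, fell by 0.61 (adjusted p = 0.00966) and MMP14, a membrane-bound metalloproteinase, by 0.51 (adjusted p = 0.00655).

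Because the series title concerns dedifferentiation, genes of the dedifferentiated and of the melanocytic state were set side by side. Of 17 genes of the dedifferentiated and invasive state 6 fell and 1 rose, 15 had a negative difference, and the median was -0.25. Over all genes 5.6% fell and 7.47% rose. NGFR, a neurotrophin receptor of neural crest-like melanoma cells, read 7.93, 7.99 and 7.66 with control siRNA and 7.19, 7.16 and 7.04 with siRNA 2 (-0.73, SE 0.130, adjusted p = 0.00256). WNT5A, a noncanonical Wnt ligand, read 7.88, 7.46 and 7.82 against 6.98, 6.83 and 7.08 (-0.76, SE 0.117, adjusted p = 0.00108). Both had groups that did not overlap. AXL, PDGFRB and PLAUR, above, and the zinc-finger factor ZEB2 were the other members that fell, and VIM was the one that rose.

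The melanocytic list was divided, with 2 of 21 higher, 2 lower and a median of 0.04, and with the block 4 were higher and 5 lower. TYRP1, a melanosomal enzyme, rose from 7.17, 7.47 and 6.99 to 8.04, 8.72 and 7.68 (0.94, SE 0.266, adjusted p = 0.035). It lost its call without any of 4 arrays (up to 0.119, without array 2 of siRNA 2). PPARGC1A, a coactivator of mitochondrial genes that MITF controls in melanoma cells, rose by 0.66 (adjusted p = 0.000858). SLC24A5, a melanosomal cation exchanger, fell by 0.67 (adjusted p = 0.000157). LEF1, a DNA-binding partner of beta-catenin, fell from 12.31, 12.60 and 12.47 to 11.43, 11.11 and 11.58 (-1.09, SE 0.125, adjusted p = 0.000129), and a further LEF1 probe differed by -1.30. In the Wnt list 4 of 20 fell and 1 rose, while 5.6% of all genes fell and 7.47% rose. AXIN2, a feedback target of beta-catenin, fell by 0.46 (adjusted p = 0.0143), while FZD1, a frizzled receptor, rose by 0.51 (adjusted p = 0.00671). The receptor FZD7 fell by 0.51 (adjusted p = 0.00515) with its further probe at 0.05.

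**Figure D4:**
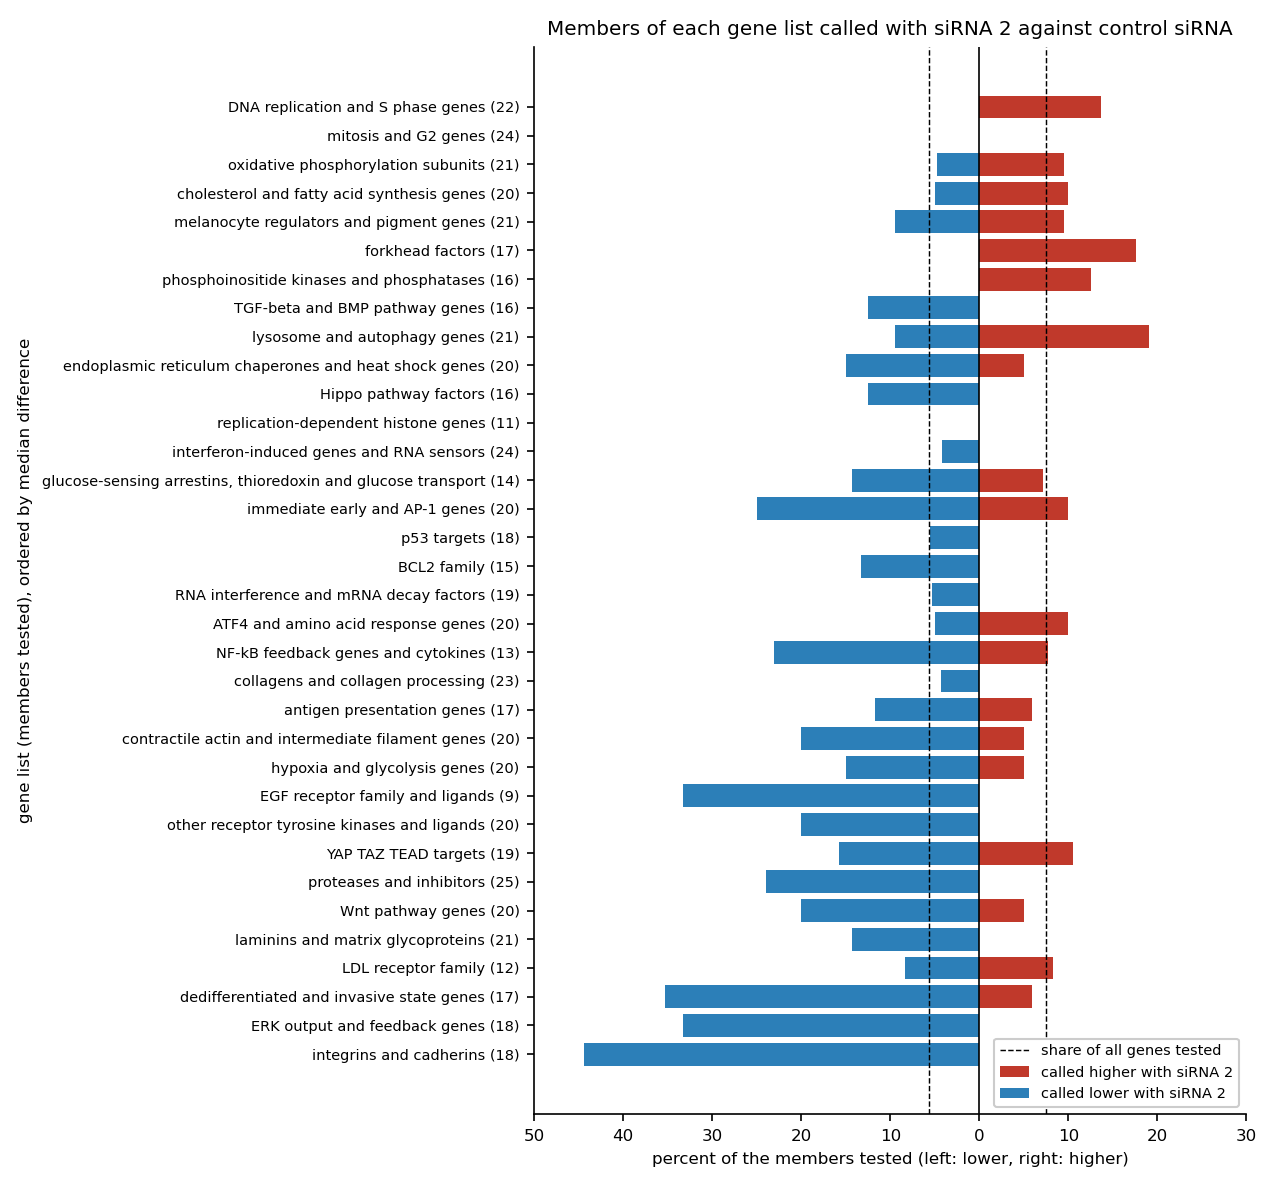
Share of the tested members of each of 34 gene lists (rows, with the number tested) called lower (blue, left) or higher (red, right) with siRNA 2 against control siRNA, in percent (x axis), with rows ordered by the median difference. Dashed lines are the shares over all genes tested, 5.6% lower and 7.47% higher. The longest blue bars are those of the integrin and cadherin list (8 of 18) and the dedifferentiated state genes (6 of 17). The ERK output genes (6 of 18) and the EGF receptor list (3 of 9) follow. The forkhead, S phase, mitosis, histone and phosphoinositide lists have none.

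Few cell-cycle genes passed the test against control. Of 22 DNA replication and S phase genes 3 rose, none fell, and 20 had a positive difference, with a median of 0.18. Over all genes 7.47% rose. CDT1, a factor that loads the replicative helicase, rose from 8.05, 7.86 and 8.01 to 8.42, 8.94 and 8.75 (0.73, SE 0.130, adjusted p = 0.00262). MCM3, a subunit of that helicase, rose from 11.01, 11.00 and 11.01 to 11.45, 11.79 and 11.45 (0.56, SE 0.102, adjusted p = 0.00314), and MCM10, an initiation factor, rose by 0.49 (adjusted p = 0.0146, and 0.0568 without control array 1). Array 2 was the highest siRNA 2 array for all 3 genes. With the block 7 of the 22 rose, and with normexp 2 did. No mitosis gene of 24 and no replication-dependent histone gene of 11 passed the limma test. In each of these lists 1 gene had an unadjusted p under 0.05, and with the block 3 mitosis genes and 1 histone gene were called. KIF11, a mitotic kinesin, had the largest difference among the mitosis genes at 0.31 (adjusted p = 0.324, and 0.0322 with the block), and the histone gene H2BC12 stood at -0.44 (adjusted p = 0.192, and 0.0225 with the block).

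Of the 34 lists, the cell-cycle lists had the largest median differences between the siRNAs. Tested directly, 19 of the 22 S phase genes were higher with siRNA 2 than with siRNA 1, 1 was lower and the median difference was 1.02, while 5.7% of all genes were called higher and 3.85% lower in that comparison. Of the 24 mitosis genes 17 were higher and none lower, with a median of 0.87. The mean log2 signal of the S phase list ran from 9.32 to 9.35 in the control group, from 9.44 to 9.74 in the siRNA 2 group and from 8.58 to 8.74 in the siRNA 1 group, and no 2 groups overlapped. For the mitosis list the ranges were 8.78 to 9.27 with control, 8.92 to 9.38 with siRNA 2 and 7.88 to 8.65 with siRNA 1. There the control and siRNA 2 arrays overlapped and the siRNA 1 arrays lay below both. CDK1, the mitotic kinase, was 1.75 higher with siRNA 2 than with siRNA 1 (adjusted p = 6.1e-05) and differed by 0.10 from control (adjusted p = 0.787). RRM2, the regulated subunit of ribonucleotide reductase, was 1.54 higher (adjusted p = 5.89e-05) and differed by 0.34 from control (adjusted p = 0.205). The G1/S activator E2F1 was the member lower with siRNA 2 than with siRNA 1, by -0.46 (adjusted p = 0.00917).

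**Figure D5:**
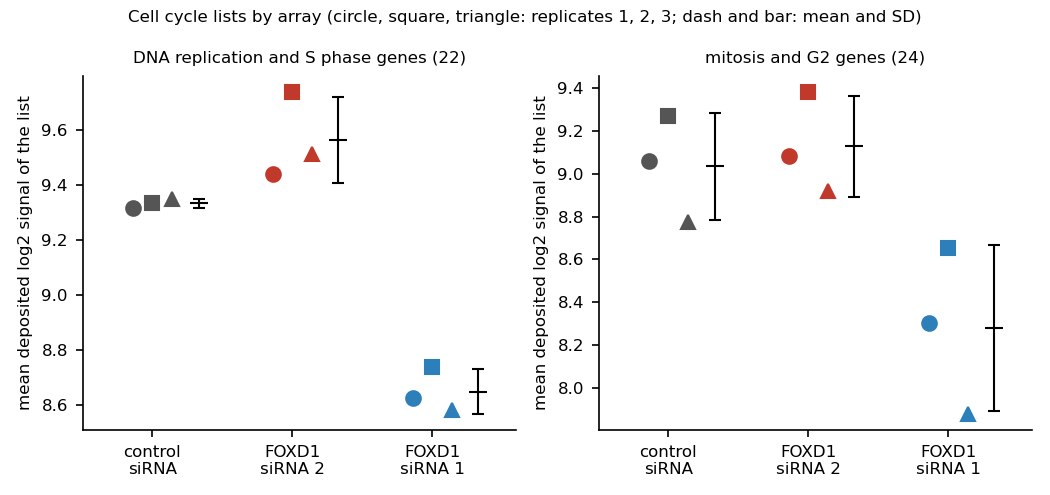
Mean deposited log2 signal (y axes, each with its own range) of 22 DNA replication and S phase genes and of 24 mitosis and G2 genes on the 9 WM266-4 arrays, by siRNA group (x axes); circles, squares and triangles are replicates 1, 2 and 3, and the dash with its bar is the mean with the SD. In the first list the siRNA 2 arrays (9.44 to 9.74) lie above control (9.32 to 9.35), in the second these groups overlap, and in both the siRNA 1 arrays lie lowest.

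Over all genes, 1306 differed between siRNA 2 and siRNA 1 (9.55%), 779 higher with siRNA 2 and 527 lower, 108 of them at least 2-fold, and 2374 with the block. The count was 743 without array 1 and 842 without array 3 of siRNA 1. The contrast sets no control array against the others, but the control arrays entered the estimate of the spread. Of the 6 genes with the largest difference toward siRNA 2, 4 were not called against control. G3BP2, a stress granule protein, read 11.19, 11.15 and 11.23 with siRNA 2, against 11.07, 11.16 and 11.23 with control siRNA and 8.86, 8.87 and 9.00 with siRNA 1. The difference between the siRNAs was 2.28 (adjusted p = 1.31e-08), and siRNA 2 and control overlapped. LEPROTL1, DCP2 (the mRNA decapping enzyme) and GPR180 behaved likewise, 2.10, 1.92 and 1.76 higher with siRNA 2 than with siRNA 1 and not called against control (adjusted p = 0.136, 0.196 and 0.959). TMEM245 and SLC35F1 were 1.95 and 1.85 higher than with siRNA 1 and 0.63 and 0.62 higher than with control siRNA (adjusted p = 0.00115 and 0.016 against control).

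In the other direction the pattern was mixed. ACTA2, smooth muscle actin, was 1.61 lower with siRNA 2 than with siRNA 1 (adjusted p = 0.00219) and did not differ detectably from control (0.03, 95% confidence interval -0.556 to 0.609). CD276, an immune checkpoint ligand, read 9.68, 10.17 and 9.97 with siRNA 2, below the control arrays at 10.91, 10.86 and 11.32 and the siRNA 1 arrays at 11.42, 11.13 and 11.48. It was 1.09 lower than control (adjusted p = 0.000426) and 1.40 lower than siRNA 1 (adjusted p = 7.35e-05), but 3 further CD276 probes differed from control by -0.33 to 0.10. CBLB, a ubiquitin ligase of receptor signalling, read 7.65, 8.01 and 7.81 with siRNA 2, against 8.86, 8.96 and 8.87 with control and 9.11, 9.03 and 9.00 with siRNA 1. It was lower than in both groups (-1.07 and -1.22, adjusted p = 2.01e-05 and 1.08e-05). MT1E, a metallothionein, was 1.32 lower than with siRNA 1 (adjusted p = 0.0135) and -0.74 from control (adjusted p = 0.132, and 6.14e-05 with the block).

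Of the 103 genes that differed at least 2-fold from control, 22 also differed between the siRNAs in the direct test, which shares the siRNA 2 arrays. The change was larger with siRNA 2 in 14 of them and smaller in 8. The 103 genes were chosen by their change with siRNA 2, which by itself favours the first count. The remaining 81 were not called different, although 18 of them were with the block; with the block 40 of the 103 were called different. Over the 103 genes the median half-width of the 95% confidence interval of the difference was 0.26. TXNIP, at 10.75, 11.12 and 10.37 with siRNA 1, was 1.02 lower with siRNA 2 than with siRNA 1 (adjusted p = 0.0148). TPST1 and SLC37A3 were 0.73 and 0.90 lower with siRNA 2 than with siRNA 1 (adjusted p = 0.00138 and 0.000156). NGFR was 0.56 lower (adjusted p = 0.0161) and CDH19 0.65 lower (adjusted p = 0.00279) with siRNA 2, whereas MCAM was 0.46 higher (adjusted p = 0.0212). CCN1 and TGFA were not called different without the block (adjusted p = 0.0665 and 0.239) and were lower with siRNA 2 with it (0.0249 and 0.00454).

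In the list of glucose-sensing arrestins and glucose transport TXNIP rose and 2 transporters fell, of 14 tested (21.4% called, against 13.1% of all genes). SLC2A3, the high-affinity glucose transporter GLUT3, read 11.07, 12.11 and 11.15 with control siRNA, 9.83, 10.18 and 10.37 with siRNA 2 and 8.62, 8.83 and 8.94 with siRNA 1. The 3 groups did not overlap, and it fell by 1.32 from control (SE 0.226, adjusted p = 0.00214) while lying 1.33 above siRNA 1 (adjusted p = 0.00236). SLC2A10, a further glucose transporter, fell by 0.76 (adjusted p = 0.000349). Of 21 oxidative phosphorylation genes 2 rose and 1 fell. NDUFS3, a core subunit of complex I, rose from 10.16, 10.05 and 10.25 to 11.52, 11.71 and 11.58 (1.45, SE 0.0879, adjusted p = 1.08e-06). CYCS, cytochrome c, rose by 0.77 (adjusted p = 0.00245). Of 20 sterol and fatty acid synthesis genes 2 rose and 1 fell (15% called). LSS, lanosterol synthase, rose by 1.13 (adjusted p = 1.22e-05), but its further probe differed by -0.09.

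Lysosome and autophagy genes were 4 higher and 2 lower of 21 (3 and none with normexp), while 7.47% of all genes were higher and 5.6% lower. TP53INP2, an autophagy scaffold, rose from 6.69, 6.75 and 6.94 to 8.19, 7.87 and 8.18 (1.29, SE 0.109, adjusted p = 1.29e-05). ATP6V0D1, a subunit of the lysosomal proton pump, rose by 1.18 (adjusted p = 1.39e-05) and ULK1, the kinase that starts autophagy, by 1.05 (adjusted p = 3.25e-05). These 3 genes had no overlap between groups. BECN1 and WIPI1, which act in autophagosome formation, stood at -0.46 and -0.50 (adjusted p = 0.044 and 0.0199), and lost their calls without any of 5 and 3 arrays (up to 0.158, without control array 1, and 0.0676, without control array 3). Of 16 phosphoinositide kinases and phosphatases 2 rose, among them PIP5K1C, a kinase that makes the phosphoinositide used at focal adhesions, from 6.93, 6.91 and 6.98 to 8.37, 8.09 and 8.59 (1.41, SE 0.113, adjusted p = 8.98e-06).

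In the stress and survival lists that follow, the share called ran from 5.56% (p53 targets) to 20% (hypoxia), against 13.1% of all genes. Of 20 hypoxia genes 3 fell and 1 rose, and the peptide hormone ADM fell by 0.85 (adjusted p = 0.00115). Of 20 ATF4-related genes 2 rose and 1 fell: ATF5 and CEBPB rose by 0.55 and 0.53 (adjusted p = 0.0058 and 0.00568), and DDIT3 fell by 0.58 (adjusted p = 0.0181, up to 0.0689 without control array 1). Of 20 endoplasmic reticulum and heat shock genes 3 fell and 1 rose, the small heat shock protein HSPB1 (0.48, adjusted p = 0.00285). Of 18 p53 targets 1 was called, the DNA repair factor XPC (-0.38, adjusted p = 0.0146, up to 0.0613 without control array 2). Of 15 BCL2 family genes 2 fell, with the antiapoptotic BCL2L1 at -0.42 (adjusted p = 0.0131) and its further probe at -0.06.

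Few genes that report a response to foreign RNA were called, 4.17% of the list against 13.1% of all genes. The control group also received an siRNA, so a response common to both groups would not show in this comparison. The list mean also scattered, at 7.84, 8.30 and 7.79 on the control arrays and 7.86, 8.04 and 7.88 on the siRNA 2 arrays. Of 24 interferon-induced genes and RNA sensors 1 fell, the factor IRF1 (-0.32, adjusted p = 0.0198, up to 0.0777 without control array 1), and none rose. With the block 3 rose and 1 fell. Of 19 RNA interference and mRNA decay factors 1 fell, AGO2, the slicing Argonaute, from 9.75, 9.43 and 9.55 to 8.83, 8.91 and 8.95 (-0.68, SE 0.0991, adjusted p = 0.000701). AGO2 was also 0.45 lower than with siRNA 1 (adjusted p = 0.0124). Among 13 NF-kB genes and cytokines 3 fell and 1 rose: the adhesion receptor ICAM1 fell by 0.95 (adjusted p = 0.00422) and the cytokine LIF by 0.63 (adjusted p = 0.00508), while NFKBIA, the inhibitor of NF-kB, rose by 0.60 (adjusted p = 0.00307). Of 17 antigen presentation genes 1 rose and 2 fell, and HLA-E stood at -0.53 (adjusted p = 0.00553). Of 16 TGF-beta and BMP pathway genes 2 fell and none rose, with TGFBR3, the betaglycan coreceptor, at -0.72 (adjusted p = 0.0103), and with the block 4 rose and 3 fell.

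Among 17 forkhead factors 3 rose and none fell against control, and FOXD1 was not among them. Over all genes 7.47% rose. FOXK1 rose by 0.71 (adjusted p = 0.00154), with a further FOXK1 probe at -0.01. FOXN3 and FOXJ2 rose by 0.46 and 0.29 (adjusted p = 0.0194 and 0.0319) and lost their calls without any of 2 and 5 arrays (up to 0.0828, without control array 2, and 0.11, without control array 1).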

How the data were processed

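The deposited table of log2 values held the signal of each probe on each array. Set against the deposited intensity table, whose values are linear and not normalized per the file headers, it equalled, to within 0.0053, the log2 of intensities that were first quantile normalized over the arrays of the line, with background left in. Detection p-values come from the authors' intensity table, per the file headers, and the sources used here do not give their method. Missing values removed 10 of 48107 probes, and 30107 carried a single symbol in the platform annotation, 30068 of them matched by gene identifier to RefSeq (GRCh38.p14). A gene was represented by its brightest probe among those with a detection p-value under 0.05 on 2 or more of the 6 arrays. For 582 called genes a further probe was measured, which differed in sign for 106 and was called the opposite way for 5.

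A single limma fit (3.58.1, R 4.3.3, lmFit and eBayes) held the 3 groups of 9 arrays and no covariate (residual degrees of freedom 6, prior 6.78). Every adjusted p in the text is from this fit after Benjamini-Hochberg over 13673 genes, two-sided, unless the block or a left-out array is named. A gene was called at an adjusted p under 0.05. Differences are on the log2 scale. Same-numbered arrays of different groups deviated together (correlations 0.240 to 0.419, different numbers -0.329 to -0.067), and the titles give the numbers, so they were taken as pairs and the fit with the number as a block was an alternative. Alternatives also changed the background correction (normexp, offset 16), normalization, filter, probe summary, moderation and arrays. Simulated data over 13673 genes held 100 changed genes of each size, independent noise, no siRNA 1 effect and no shared replicate deviation. There 55% of changes of 0.5 and 95% of changes of 1 (log2) were recovered, and 6 unchanged genes were called. The real arrays differ in these settings, so the shares do not give the recovery in this comparison. Named genes were FOXD1, FOXD2 and CCN2, the 12 largest rises and falls among called genes without overlap, up to 4 called members per list and direction, the 6 largest differences each way between the siRNAs and the 6 brightest called genes each way. CDK1, RRM2, E2F1, ZEB2 and SLC6A8 were named after their values were seen. 1 of the 12 largest falls is not described here. The members, lists and tests were chosen with earlier results of these data known. The number of arrays limits the precision.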

Additional observations from a re-analysis of the deposited data

How the results depend on the processing

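The FOXD1 difference stayed between -0.01 and 0.12 on the log2 scale and was called under no alternative, and the CCN2 difference stayed between -3.25 and -3.01 and was called under all. With the replicate block the genes called against control numbered 2746, those lower 1259, and those called between the siRNAs 2374. With normexp 493 genes were lower and 301 called genes were at least 2-fold. Leaving out single arrays gave 1208 to 1667 genes called against control (1787 with all arrays), 510 to 722 lower (510 without control array 2), 103 to 127 at least 2-fold, and 743 to 1346 between the siRNAs (743 without array 1 and 842 without array 3 of siRNA 1). The cause of these shifts was not tested, beyond the smaller number of arrays. Of 152 results for single named genes, 96 kept direction and side of the threshold under every alternative, 0 reversed and 56 crossed the threshold under at least 1, of which 7 only when an array was left out. The block moved 3 past the threshold and lost none, while normexp lost 37 (among them AXL, CTSG, EGR1, TYRP1, BGN, ITGB8, MCM10, XPC, DDIT3, BECN1, WIPI1, FOXJ2 and BCL2L1, adjusted p 0.0515 to 0.114), all 14 arrays 19, and moderation with a trend and robust variance 13. Of the 1787 called genes 915 were called after every single array was left out, and 101 of the 103 at least 2-fold. The planned fit of the 6 compared arrays alone, without the block, called 1426 genes, 817 higher and 609 lower, and lost 14 of the named results. The fit of all 14 arrays called 1444. The fit of the 6 arrays with the block was added after seeing the data and called 2231 genes. Dim genes are limited by background: 15 called genes were below it on all siRNA 2 arrays and 5 on all control arrays.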

Other observations

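Array 2 of the siRNA 2 group kept some transcripts at control level that the other siRNA 2 arrays did not. TMEM9B, a lysosomal membrane protein, read 9.82, 9.51 and 9.71 with control siRNA and 7.67, 9.60 and 7.68 with siRNA 2. Its difference was -1.36 with all arrays (adjusted p = 0.0293, and 0.00505 with the block) and -2.01 without array 2. EIF4H, a translation initiation factor, read 11.52, 11.52 and 11.54 with control siRNA and 10.27, 11.62 and 10.37 with siRNA 2 (adjusted p = 0.0662, and 0.00907 with the block). AGPAT2, an acyltransferase of phospholipid synthesis, read 8.71, 8.74 and 8.51 against 7.33, 8.72 and 7.52 (adjusted p = 0.0666, and 0.014 with the block). CPEB1, an RNA-binding regulator of polyadenylation, read 8.52, 8.56 and 8.33 against 7.31, 8.34 and 7.14 (adjusted p = 0.0226, and 0.00179 with the block). With siRNA 1 these 4 genes lay at or just below control, for example 9.62, 9.49 and 9.78 for TMEM9B. All 4 were chosen after their values were seen because array 2 lay near control, so the larger difference without it follows from the choice, and the counts of such genes for each array are given with the description of the arrays.

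The brightest genes called lower included TIMP1, an inhibitor of metalloproteinases, which stood at -0.36 (adjusted p = 0.0474), and SNRPB2, a spliceosome protein, at -0.33 (adjusted p = 0.0152). The brightest called higher after VIM included FSCN1, the actin-bundling protein fascin, which rose by 0.54 (adjusted p = 0.00318), and the translation factor EIF3B, which rose by 0.57 (adjusted p = 0.00161). TIMP1 lost its call without any of 7 arrays (up to 0.159, without control array 3) and SNRPB2 without any of 2 (up to 0.0626, without array 3 of siRNA 2), as did 3 of the brightest genes called higher, DBI, TKT and EEF2, without any of 4, 4 and 5 arrays (up to 0.0749, without control array 1, 0.0843, without control array 1, and 0.104, without control array 2). FSCN1 and EIF3B kept their calls.

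Base composition of the promoters and the chromosome of called genes are given as descriptions without a test. The median GC content of the 200 bases before the start was 65.5% over the tested genes with a promoter, 69% for those that rose, 66.5% for those that fell, 73.5% for those that rose at least 2-fold and 70.3% for those that fell at least 2-fold. Chromosome 19 had the largest share of genes called higher, 11.4% of 954 tested, with 4.51% lower. On chromosome 16 10.1% were higher and 3.18% lower, and on chromosome 13 6.25% were higher and 9.77% lower.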
